A study of Sus scrofa domesticus with 6 samples.

Results

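Antimicrobial defence genes of the gut lining, 10 in number, were followed across the small intestine of Göttingen minipigs: LYZ, LCN2, REG3G, PLA2G2A, DMBT1, PIGR, DUOX2, DUOXA2, NOS2 and LTF. They were found by gene symbol, 10 of the 30352 table entries that carry a gene name, and each matched 1 entry. In the order just given their NCBI gene identifiers are 100157211, 100153501, 100240745, 100738064, 751862, 397315, 397060, 100155365, 396859 and 397649. PLA2G2A had no read in any animal, and the other 9 passed the filter on low counts. The study gave abdominal irradiation and asked, by its title, how pravastatin, a statin that inhibits cholesterol synthesis, alters the transcriptome after that injury. Total RNA of small intestine from 6 wild-type minipigs, all 6 months old, was sequenced. The 2 control animals are labelled with no treatment. The 2 animals of the IR group received 15 Gy to the abdomen from a 60Co gamma source. The 2 animals of the IR_Pra group received the same 15 Gy and oral pravastatin at 40 mg per day, given in a pair of daily doses, for 2 weeks; the design text calls the drug PS where the other labels call it Pra. Tissue was taken on day 14. The labels do not say from which segment of the small intestine a piece came, nor whether mucosa was separated from muscle.

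The gut lining defends itself with secreted proteins, with antibody carried into the lumen and with oxidants made at the cell surface. Paneth cells at the crypt base release lysozyme and secretory phospholipase A2, while REG3 lectins, lipocalin 2 and DMBT1 come from several epithelial cell types and increase with bacterial contact or inflammation. The polymeric immunoglobulin receptor carries IgA across the epithelium, and the dual oxidases with their maturation factors produce hydrogen peroxide at the apical membrane.

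The 6 libraries held between 48600424 and 73975174 counts. Levels are given as CPM, a gene's counts per 1000000 counts of its library after TMM scaling, the 2 animals of a group always in the order 1 and 2. Differences are log2 fold changes ± standard error from edgeR's quasi-likelihood test over 18197 genes, with Benjamini-Hochberg adjustment and a threshold of 0.05. With 2 animals a group, the p-values measure the spread between these animals only. Animal IR 2 stands apart: its 12 epithelial markers, EPCAM, VIL1 and CDX2 among them, summed to 1697 CPM, against 7637 to 9240 CPM in the other 5 libraries. Its 13 absorptive enterocyte markers summed to 1021 CPM, against 50982 in IR 1 and 18183 to 27922 in the rest. In bulk tissue, fewer cells of a type and less RNA per cell cannot be told apart. Animal IR 1 differed in another way, by transcript length. Its median log2 ratio to control was 0.62 for the shortest 1820 genes and -0.71 for the longest 1820. In IR 2 these medians were 0.03 and -0.16.

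After irradiation alone, 1 of the 9 measured genes passed the test against control, LCN2, which rose, and the other 8 did not pass. Over all genes tested in that comparison, 6.06% passed, 3.39% rising and 2.68% falling. Between IR_Pra and IR none of the 9 passed, where 0.0055% of all genes did, and between IR_Pra and control none passed, where 0% of all genes did. At an unadjusted p under 0.05 the counts were 5, 2 and 3 of 9, against 30.2%, 24.5% and 3.42% of all genes. DESeq2, run as an alternative, called 5 genes in IR against control (LCN2, REG3G, DMBT1, DUOXA2 and LTF, all higher). It called 2 in IR_Pra against IR (REG3G higher, LTF lower) and 1 in IR_Pra against control (REG3G, higher). Over all 18197 genes it called 4131, 2872 and 72 in the same comparisons. The ranges of the IR and control animals did not overlap for 5 of the 9 genes, as for 59.8% of all genes, and those of IR_Pra and IR for 4 of 9, against 53.9%. For IR_Pra and control they did not overlap for 7 of 9, against 40.8%. All 3 comparisons share animals with one another.

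**Figure D1:**
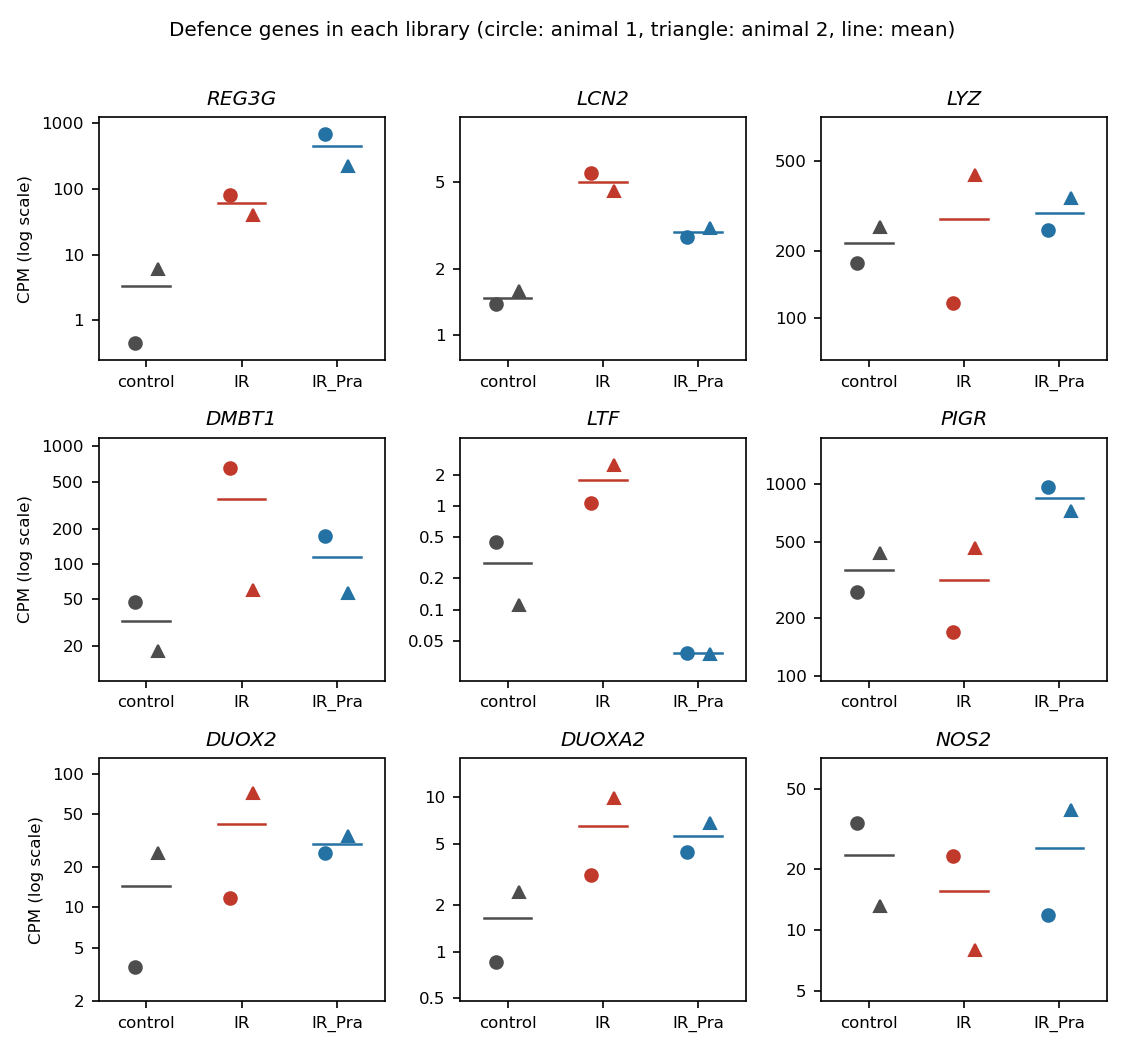
Level of the 9 measured genes in each of the 6 animals, in CPM on a log axis whose range differs by gene. Circles are animal 1 of a group, triangles animal 2 and lines the group mean; REG3G spans 0.45 to 671 CPM and is highest in both IR_Pra animals, and the LCN2 points lie close together within each group.

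Among the Paneth cell products, lysozyme (LYZ), which cuts bacterial cell walls, was the gene of the set with the highest level per transcript length in control tissue. Its locus lies on chromosome 5 at 33612593 to 33618953 of Sscrofa11.1, the build used for all positions here. LYZ stood at 177 and 255 CPM in the controls, 117 and 435 in IR, and 246 and 344 in IR_Pra. The IR animals held both the lowest and the highest level, so the groups overlap in each comparison. The log2 fold change was 0.36 ± 0.61 for IR against control (adjusted p = 0.725) and 0.10 ± 0.61 for IR_Pra against IR (adjusted p = 0.936). The high animal, IR 2, is the one with few epithelial transcripts: relative to 1000 CPM of epithelial markers it held 256 CPM of LYZ, against 15.0 to 45.0 in the other 5 animals. Macrophages make lysozyme too, and the 13 macrophage markers summed to 780 and 792 CPM in the controls, 3734 and 4139 in IR, and 1314 and 1958 in IR_Pra, with CD163 and CD68 among them. Of those 13, 10 rose in IR against control with edgeR, where 3.39% of all genes rose. DESeq2 called all 13 higher, where it called 2244 of all 18197 genes higher. The part of macrophages in the LYZ values was not tested.

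PLA2G2A, the secretory phospholipase A2 that hydrolyses bacterial membranes, is annotated on chromosome 6 at 78327728 to 78339546 and had 0 counts in all 6 libraries. A count of 0 allows up to 0.0396 to 0.0579 CPM, depending on the library, for counting error only. MMP7, the protease that matures Paneth cell defensins in mice, also stayed low, at 0.26 CPM or less. SOX9, a transcription factor of crypt base and Paneth cells, was present at 20.2 and 21.0 CPM in the controls, 16.0 and 17.7 in IR, and 27.2 and 26.6 in IR_Pra. So of LYZ, PLA2G2A and MMP7, LYZ alone was abundant, and it is not specific to Paneth cells.

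Lipocalin 2 (LCN2; chromosome 1, 268609975 to 268614651) binds bacterial siderophores and so withholds iron. It was at 1.39 and 1.59 CPM in the controls, 5.50 and 4.58 in IR, and 2.82 and 3.09 in IR_Pra, from 80 to 347 counts a library. The 3 groups do not overlap: both IR animals are highest and both IR_Pra animals lie between them and control. The mean was 1.49 ± 0.143 CPM in control (SD, n = 2), 5.04 ± 0.648 in IR (SD, n = 2) and 2.96 ± 0.195 in IR_Pra (SD, n = 2). LCN2 rose 3.39-fold in IR against control, a log2 fold change of 1.76 ± 0.35 (edgeR, adjusted p = 0.0480). In IR_Pra against IR the log2 fold change was -0.77 ± 0.34 (adjusted p = 0.234), and in IR_Pra against control 0.99 ± 0.35 (adjusted p = 0.9998, unadjusted p = 0.0298). Relative to 1000 CPM of epithelial markers, LCN2 was at 0.17 and 0.17 in the controls. It was at 0.70 and 2.70 in IR, and at 0.31 and 0.41 in IR_Pra. On that scale the order of the groups holds, but the IR animals lie far apart.

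The LCN2 call lies at the threshold and was lost under several settings. The adjusted p was 0.255 without control 1, 0.193 without control 2, 0.112 without IR_Pra 1, 0.113 without IR_Pra 2, and 0.107 with the control and IR animals fitted alone. It was 6.67e-05 with DESeq2. LCN2 and REG3G have short transcripts, and for the shortest 1820 genes, both included, the median log2 ratio to control was 0.62 in IR 1 and 0.03 in IR 2. With that length trend removed, an alternative chosen after seeing the data, the LCN2 log2 fold change in IR against control was 1.41 (edgeR, adjusted p = 0.0559). Those of REG3G, LYZ, DUOXA2 and LTF were then 3.80, 0.14, 1.76 and 2.59, against 4.20, 0.36, 1.98 and 2.67 before. Those of DUOX2, DMBT1, PIGR and NOS2 were then 1.67, 3.75, -0.16 and -0.39. Neutrophil granules also hold lipocalin 2. The 13 neutrophil markers on the table summed to 64.5 and 29.5 CPM in the controls, 97.1 and 88.3 in IR, and 32.5 and 52.2 in IR_Pra, so they were highest in the same 2 animals as LCN2. Of the 10 that passed the filter, 9 had a positive log2 fold change in IR against control. The median of the 10 was 3.73, against 0.03 over all genes. With edgeR 1 of the 10 passed (S100A12), a share of 10%, against 6.06% of all genes. DESeq2 called 6 of them higher, where it called 2244 of all 18197 genes higher. The ratio of IR to control, pooled over animals, was 36.8 for S100A8 (95% counting interval 9.86 to 309) and 26.8 for S100A9 (13.4 to 62.8), at levels of up to 0.72 and 2.80 CPM. Their edgeR log2 fold changes were 5.07 ± 1.24 (adjusted p = 0.0531) and 4.79 ± 1.37 (adjusted p = 0.0833). The granule enzymes MPO and ELANE reached at most 0.78 and 0.14 CPM, and MMP8 was at 0 throughout. Their part in the LCN2 values was not tested.

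**Figure D2:**
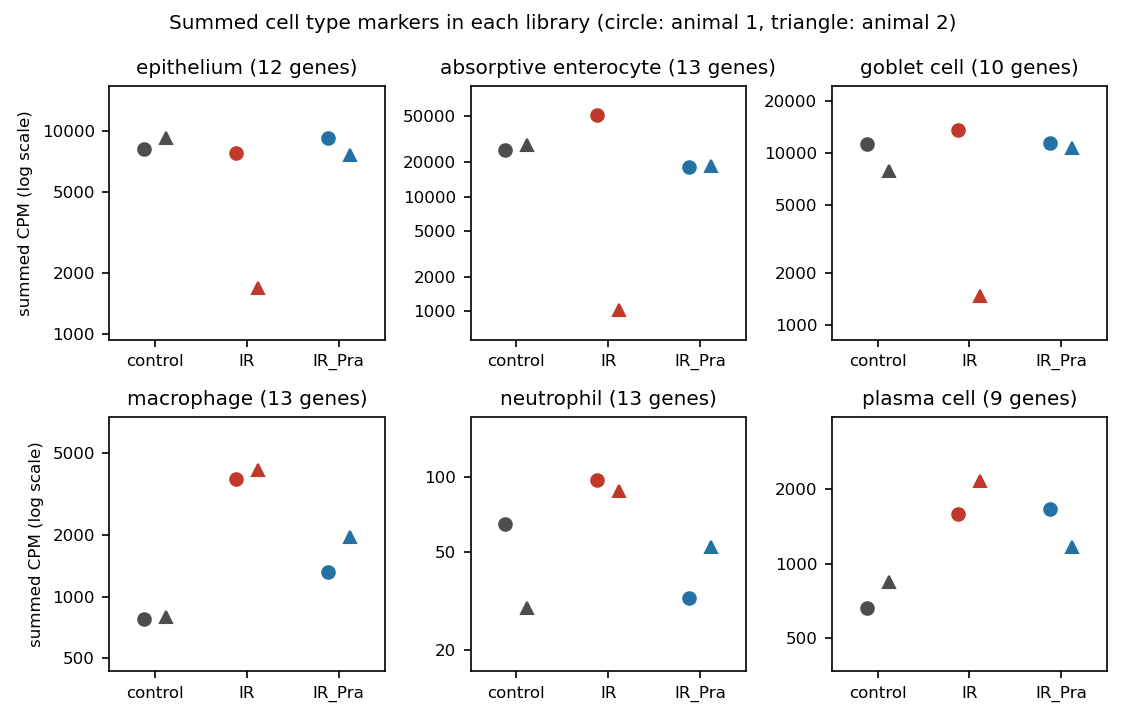
Summed CPM of 6 marker lists in each of the 6 animals, on log axes whose range differs by list; circles are animal 1 and triangles animal 2 of a group. Epithelial, enterocyte and goblet cell sums are lowest in IR 2, and macrophage sums are highest in both IR animals (3734 and 4139 CPM).

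REG3G, a lectin that binds the peptidoglycan of Gram-positive bacteria and keeps them away from the epithelium, covered the widest range of the set. The gene lies on chromosome 3 at 64847629 to 64850365. REG3G was at 0.45 and 6.14 CPM in the controls, 81.2 and 40.5 in IR, and 671 and 218 in IR_Pra. The lowest library had 26 counts and the highest 34734. The 3 groups do not overlap and stand in the order control, IR, IR_Pra, a pattern shown by 66 of the 18197 genes (0.363%); this order was picked out after the values were seen. The log2 fold change was 4.20 ± 1.25 in IR against control (edgeR, adjusted p = 0.0920), 2.87 ± 1.17 in IR_Pra against IR (adjusted p = 0.205) and 7.07 ± 1.43 in IR_Pra against control (adjusted p = 0.9998, unadjusted p = 0.00276). None passed the threshold with edgeR. Leaving out 1 animal at a time, they ranged from 3.37 (without control 1) to 7.17 (without control 2), from 1.75 (without IR_Pra 1) to 3.46 (without IR 1), and from 6.02 (without IR_Pra 1) to 9.95 (without control 2), and none passed. DESeq2 gave adjusted p-values of 0.000933, 0.0468 and 8.78e-08 for the same 3 differences. The 2 control animals differed by 3.67 on the log2 scale, a gap larger than that of 99.4% of genes. Relative to 1000 CPM of epithelial markers, REG3G was at 0.05 and 0.67 in the controls, 10.4 and 23.9 in IR, and 72.6 and 28.6 in IR_Pra. On that scale IR 2 comes close to IR_Pra 2.

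The gene whose profile over the 6 animals came nearest to that of REG3G, among 13431 genes, was HOXA9, a homeobox gene of posterior body identity. The likeness is loose, a root mean square difference of 1.90 on the log2 scale against a spread of 3.44 for REG3G itself. HOXA9 was at 0.21 and 0.17 CPM in the controls, 0.74 and 0.42 in IR, and 39.2 and 14.7 in IR_Pra. In IR_Pra against IR its log2 fold change was 5.54 ± 0.64 (edgeR, adjusted p = 0.0754). HOX genes of paralogue groups 9 to 13 are known to mark position along the gut, and the other genes of these groups, read after HOXA9 was seen, did not all follow it. HOXC9 was at 2.15 and 2.06 CPM in the controls, 8.80 and 3.94 in IR, and 6.41 and 3.73 in IR_Pra, a log2 fold change of -0.33 ± 0.50 in IR_Pra against IR (adjusted p = 0.716). HOXD9 was at 0.90 and 1.13 CPM in the controls, 2.67 and 2.1 in IR, and 1.12 and 0.84 in IR_Pra, lower in both IR_Pra animals than in both IR animals (-1.28 ± 0.43, adjusted p = 0.153). HOXA10 and HOXC10 were highest in IR_Pra, at 1.51 CPM or less, and 9 of the 15 genes had no read in any library. Summed, the 15 genes, HOXA9 included, stood at 3.29 and 3.46 CPM in the controls, 12.5 and 6.73 in IR, and 49.5 and 19.9 in IR_Pra. In IR against control the log2 fold change was 1.59 ± 0.62 for HOXA9, 1.59 ± 0.51 for HOXC9 and 1.23 ± 0.43 for HOXD9. None of these passed, and HOXA10 had no read in either group. The part of position along the gut in the values of REG3G, or of any other gene followed here, was not tested. The labels do not give that position.

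DMBT1, a large scavenger-receptor glycoprotein that agglutinates bacteria, is on chromosome 14 at 132154346 to 132231274. It stood at 47.3 and 18.4 CPM in the controls, 655 and 60.6 in IR, and 174 and 56.5 in IR_Pra. Both IR animals lie above both controls, but IR 1 is 10.8 times IR 2, a gap larger than that of 96.7% of genes. Relative to 1000 CPM of epithelial markers, DMBT1 was at 5.78 and 2.00 in the controls, 83.8 and 35.7 in IR, and 18.8 and 7.40 in IR_Pra. On that scale both IR animals are above all others. The log2 fold change was 3.44 ± 1.21 for IR against control (edgeR, adjusted p = 0.126) and -1.63 ± 1.12 for IR_Pra against IR (adjusted p = 0.408). Without IR 1 the first difference was 0.88 (adjusted p = 0.418) and the second turned to 0.93, whereas without IR 2 the first passed at 4.31 (adjusted p = 0.0266). The profile nearest to DMBT1 was that of GCKR, the regulator of glucokinase (root mean square difference 0.59), at 10.3 CPM in IR 1 and 0.33 to 0.98 elsewhere. IR 1 is also the animal with the highest summed enterocyte level, and that part was not tested.

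LTF, the iron-binding milk and neutrophil protein lactoferrin (chromosome 13, 29413886 to 29445751), was scarce. It had 26 and 7 counts in the controls, 57 and 189 in IR, and 2 and 2 in IR_Pra, which are 0.45 and 0.11, 1.06 and 2.50, and 0.04 and 0.04 CPM. Both IR animals are above the controls and both IR_Pra animals below them. Pooled over animals, the ratio of IR to control was 6.95 (95% counting interval 4.82 to 10.3) and that of IR to IR_Pra 49.9 (19.2 to 185), intervals that cover counting error only. Including the spread between animals, edgeR gave log2 fold changes of 2.67 ± 0.75 (adjusted p = 0.0746) and -5.48 ± 0.97 (adjusted p = 0.0754). The second passed without IR 1 (adjusted p = 0.00712) and without IR 2 (adjusted p = 0.0345), and the first without IR 1 (adjusted p = 0.00867). The second went to an adjusted p of 0.380 without IR_Pra 1, 0.305 without IR_Pra 2, 0.183 without control 1 and 0.179 without control 2, and the first to 0.238 and 0.247 without control 1 and control 2. The neutrophil sum given above is also higher in both IR animals than in both IR_Pra animals. Between IR_Pra and control it did not follow LTF. The IR_Pra sums, 32.5 and 52.2 CPM, lie within the control sums of 64.5 and 29.5 CPM. In that comparison 7 of the 10 neutrophil markers tested had a positive log2 fold change and 3 a negative one. That of LTF was -2.80 ± 1.04 (edgeR, adjusted p = 0.9998), which did not pass and rests on 4 counts in IR_Pra against 33 in control. The part of neutrophils in the LTF values was not tested.

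PIGR, the polymeric immunoglobulin receptor, lies on chromosome 9 at 67553094 to 67574698. Its level was 273 and 440 CPM in the controls, 170 and 465 in IR, and 965 and 721 in IR_Pra. The IR animals span the controls, and both IR_Pra animals lie above the other 4. The log2 fold change was -0.17 ± 0.54 in IR against control (edgeR, adjusted p = 0.862), 1.41 ± 0.55 in IR_Pra against IR (adjusted p = 0.190) and 1.24 ± 0.55 in IR_Pra against control (adjusted p = 0.9998). The middle difference passed without IR 2, at 2.31 (adjusted p = 0.0334), and was 0.86 without IR 1 (adjusted p = 0.154) and 1.15 without IR_Pra 1 (adjusted p = 0.533). Relative to 1000 CPM of epithelial markers, PIGR was at 33.4 and 47.8 in the controls, 21.8 and 274 in IR, and 104 and 94.5 in IR_Pra, so on that scale IR 2 is highest and the IR animals enclose the IR_Pra ones.

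The genes of IgA and its transport were read beside PIGR. Of 12 measured, 1 rose and 1 fell in IR against control, a share of 16.7% against 6.06% of all genes, and none passed in the other comparisons. DESeq2 called 4 higher and 3 lower in IR against control, where it called 4131 of all 18197 genes. TNFRSF17, the plasma cell survival receptor, rose by 1.73 ± 0.29 (edgeR, adjusted p = 0.0403). FCAMR, an Fc receptor for IgA and IgM whose locus begins 10418 bases beyond that of PIGR, fell from 71.1 and 37.5 CPM in control to 0 and 0.04 in IR (adjusted p = 0.0331), and stood at 22.1 and 69.4 in IR_Pra. The IR level rests on 3 counts, for a control to IR ratio of 2313 (95% counting interval 791 to 11221). JCHAIN, which joins IgA monomers and binds the receptor, stood at 236 and 483 CPM in the controls, 1100 and 1840 in IR, and 1172 and 730 in IR_Pra, higher in all 4 irradiated animals than in control, and did not pass. The 9 plasma cell markers, JCHAIN among them, summed to 662 and 844 CPM in the controls, 1592 and 2163 in IR, and 1660 and 1168 in IR_Pra.

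The oxidant genes lie together on chromosome 1. DUOX2, the dual oxidase of the gut, spans 126620468 to 126641406, and DUOXA2, the partner that brings it to the cell surface, spans 126616631 to 126620359, which leaves 108 bases between them. DUOX2 was at 3.58 and 25.5 CPM in the controls, 11.9 and 72.5 in IR, and 25.5 and 34.2 in IR_Pra. DUOXA2 was at 0.87 and 2.44 CPM in the controls, 3.16 and 9.93 in IR, and 4.42 and 6.81 in IR_Pra. For both genes control 1 is lowest and IR 2 highest. Control and IR overlap for DUOX2 and do not for DUOXA2. The control animals differed by 2.82 on the log2 scale for DUOX2, more than 98.4% of genes did.

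In IR against control the log2 fold change was 1.54 ± 1.09 for DUOX2 (edgeR, adjusted p = 0.381) and 1.98 ± 0.74 for DUOXA2 (adjusted p = 0.141). In IR_Pra against IR it was -0.50 ± 1.06 for DUOX2 (adjusted p = 0.800) and -0.22 ± 0.71 for DUOXA2 (adjusted p = 0.866). The sign of these last 2 is not fixed: on log2 FPKM they were 0.0325 and 0.0517. In IR against control, DUOXA2 passed without IR 1 at 2.57 (adjusted p = 0.0272) and was 0.92 without IR 2 (adjusted p = 0.354). Without IR 2 the DUOX2 difference was -0.30. Per transcript length, the ratio of DUOX2 to DUOXA2 lay between 0.88 and 2.45 in the 6 animals. IR 2, with few epithelial transcripts, held 42.7 CPM of DUOX2 per 1000 CPM of epithelial markers, against 0.44 to 4.48 in the others.

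The neighbouring pair DUOX1 and DUOXA1 was lower: DUOX1 stood at 1.32 and 4.70 CPM in the controls, 2.64 and 8.07 in IR, and 2.26 and 2.48 in IR_Pra, and DUOXA1 did not exceed 0.24 CPM. NOS2, the inducible nitric oxide synthase (chromosome 12, 44174944 to 44219875), was at 34.1 and 13.2 CPM in the controls, 23.3 and 7.99 in IR, and 11.8 and 39.4 in IR_Pra. All 3 groups overlap, with at least a 2.58-fold gap between the animals of each. The NOS2 log2 fold change was -0.60 ± 0.79 for IR against control (edgeR, adjusted p = 0.641) and 0.71 ± 0.79 for IR_Pra against IR (adjusted p = 0.606). Of the 20 other oxidant and nitric oxide genes measured, none passed in any comparison with edgeR. Their median log2 fold change in IR against control was 0.83, against 0.03 over all genes. With edgeR 10 had an unadjusted p under 0.05, against 30.2% of all genes. DESeq2 called 3 higher and 2 lower, where it called 4131 of all 18197 genes.

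**Figure D3:**
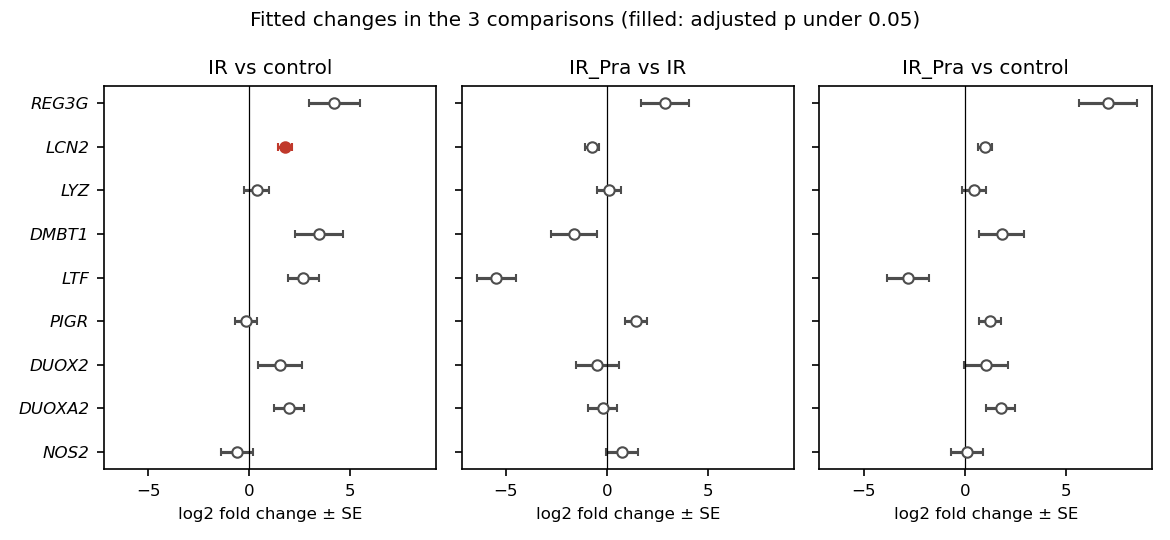
Log2 fold change with its standard error for the 9 measured genes in the 3 comparisons, from edgeR with all 6 libraries. Filled and open points separate genes past and not past an adjusted p of 0.05; LCN2 in IR against control (1.76 ± 0.35) is the 1 filled point.

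Compared per transcript length, in FPKM, the order of the genes changed between groups. In control, LYZ led at 164 ± 44.0 FPKM (SD, n = 2), then PIGR at 86.2 ± 29.4, DMBT1 at 6.96 ± 4.26, NOS2 at 5.38 ± 3.37 and REG3G at 4.82 ± 5.94. The last 3 do not differ beyond their spread. In IR, LYZ (208 ± 185), PIGR (75.1 ± 55.9), DMBT1 (66.8 ± 75.9) and REG3G (64.5 ± 24.4) had overlapping spreads. In IR_Pra, REG3G had the highest mean at 545 ± 400 FPKM, with LYZ at 235 ± 51.0 and PIGR at 214 ± 47.3, all within the spread of REG3G. LTF was the lowest of the 9 measured genes in each group, at 0.61 FPKM or less on average.

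Further defence genes were read from lists of the same pathways. Of 32 measured entries for secreted antimicrobial proteins, 1 rose in IR against control and none fell, a share of 3.12% against 6.06% of all genes, and none passed in the other comparisons. DESeq2 called 4 higher in IR against control and none lower, where it called 4131 of all 18197 genes. The gene that rose was S100A12, a calcium-binding protein of neutrophils and macrophages, at 0.10 and 0 CPM in the controls, 2.02 and 1.97 in IR, and 0.15 and 0.28 in IR_Pra (log2 fold change 5.25 ± 1.06, edgeR, adjusted p = 0.0463). The list's median log2 fold change was 0.27, against 0.03 over all genes. LYPD8, which keeps flagellated bacteria off the epithelium, was at 584 and 453 CPM in the controls, 869 and 47.9 in IR, and 567 and 650 in IR_Pra, lowest in IR 2, and did not pass. REG4, a goblet and enteroendocrine lectin, was at 200 and 165 CPM in the controls, 1171 and 111 in IR, and 206 and 243 in IR_Pra, and did not pass. BPI, which binds endotoxin, was at 128 and 166, 100 and 243, and 550 and 271 CPM in the same order, highest in both IR_Pra animals, and did not pass either; it was picked out after its values were seen.

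**Figure D4:**
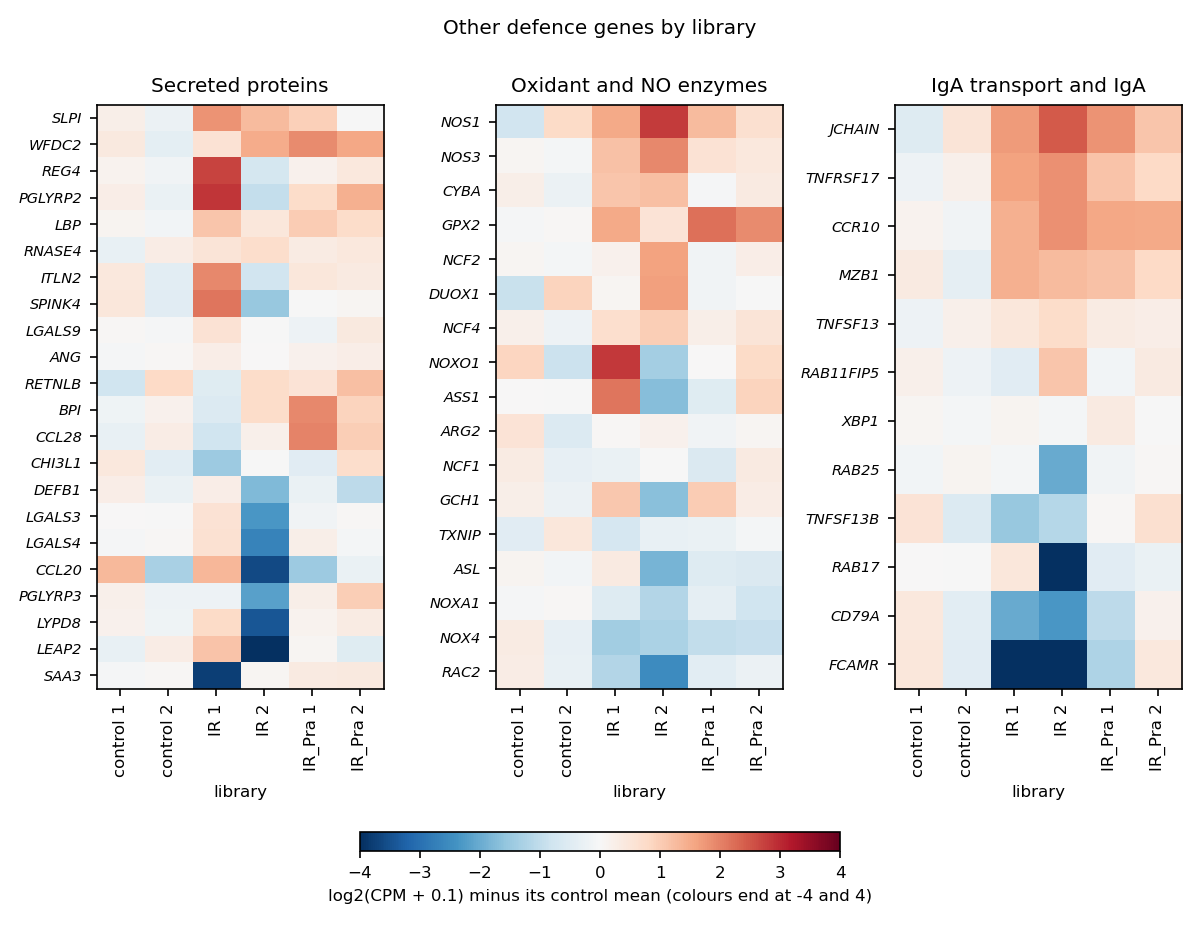
Log2(CPM + 0.1) of further defence genes in the 6 animals, minus the control mean of the gene, as colours that end at -4 and 4. JCHAIN and TNFRSF17 are higher in all 4 irradiated animals than in control, FCAMR is lowest in both IR animals, and REG4 is high in IR 1 alone (1171 CPM).

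Among 47 measured genes of microbial sensing and its signals, 3 rose and 1 fell in IR against control, a share of 8.51%, near the 6.06% of all genes. DESeq2 called 7 higher and 4 lower, where it called 4131 of all 18197 genes. CEBPD and CEBPB, transcription factors of the acute-phase response, rose by 2.21 ± 0.27 (edgeR, adjusted p = 0.0364) and 2.61 ± 0.38 (adjusted p = 0.0370). CD14, the endotoxin co-receptor of macrophages and also on the macrophage list, rose by 3.08 ± 0.63 (adjusted p = 0.0494). TRAF6, the adaptor behind Toll-like receptors, fell by 2.72 ± 0.29 (adjusted p = 0.0359), from 26.9 and 21.8 CPM in control to 4.25 and 3.16 in IR, and stood at 23.0 and 20.3 in IR_Pra. Of 17 regulators of the Paneth and secretory lineage, 2 fell, a share of 11.8%, and DESeq2 called 1 higher and 3 lower. They were FZD5, the Wnt receptor of Paneth cell maturation, by 2.94 ± 0.51 (adjusted p = 0.0410), and ATOH1, the master regulator of secretory cells, by 1.73 ± 0.34 (adjusted p = 0.0463). ATOH1 was at 39.6 and 30.3 CPM in the controls, 12.7 and 8.32 in IR, and 34.7 and 24.6 in IR_Pra. No gene of these lists passed in the comparisons with IR_Pra. Between IR_Pra and IR, 24.5% of all genes had an unadjusted p under 0.05 with edgeR. The counts were 4 of 32 secreted proteins, 4 of 20 oxidant genes and 4 of 12 IgA genes. Those of sensing genes and lineage regulators were 11 of 47 and 4 of 17. DESeq2 called 2, 2, 3, 9 and 4 genes of these lists in that order, and 2872 of all 18197 genes. The calls in IR against control lie close to the threshold, and no gene on the table passed when either control or either IR_Pra animal was left out.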

How the data were processed

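Total RNA of small intestine was sequenced in 6 libraries, 1 per animal. Per the submitters' processing notes the tools were bcl2fastq 2.20.0, Trimmomatic with no version named, HISAT2 2.1.0 and StringTie 2.1.3b, with the builds Sscrofa11.1 and GRCh38. Not given in the sources used here are the role of GRCh38, the strand setting and the way reads were counted. The authors deposited 1 table with raw read counts and FPKM per gene and library, per the file headers, and its positions were taken from RefSeq gene tables of Sscrofa11.1. Without strand, reads of overlapping genes cannot be told apart. The 24 entries with no gene name, 0.00906% to 0.0385% of counts, were left out.

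Counts were scaled with TMM, filtered with filterByExpr and fitted in edgeR 4.0.16 (quasi-likelihood, bias-adjusted deviance, R 4.3.3) over all 6 libraries, which left 3 residual degrees of freedom. Total counts per library set the precision of low genes, and intervals and floors (3 counts) cover counting error only. FPKM values were used for levels between genes and, as log2(FPKM + 1), in limma 3.58.1. Alternatives were DESeq2 1.42.0, limma voom, other scalings and filters, a replicate term, subsets of libraries and, chosen after seeing the data, the legacy edgeR fit and removal of a length trend. The code was tested on simulated data. Genes named are all 10 chosen genes, fixed markers and list genes past the threshold (up to 6 a comparison). Up to 4 more per list, by mean CPM, could be named. So could the 2 nearest profiles per gene (root mean square difference of centred log2 CPM, mean of at least 1 CPM). Of these only HOXA9 and GCKR are described above. The profiles nearest to LYZ and LCN2 were those of CDH11 (difference 0.08) and SRPX (0.13). ELANE, MMP8 and MPO were named after their values were seen. The genes and lists were chosen with earlier results of these data known. Same-numbered animals of different groups are separate animals. Promoter and protein sequences were not used here. Of the IgA list, 1 gene is not reported here and was left out of its counts.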

Additional observations from a re-analysis of the deposited data

How the results depend on the processing

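The number of the 9 genes past the threshold in IR against control was 1 with edgeR and 5 with DESeq2, 3 at an adjusted p under 0.10, and 0 with limma voom, log2 FPKM, library size alone, genes unfiltered, a minimum of 5 CPM in 2 libraries (which LCN2 and LTF do not reach), the 4 libraries alone, the legacy fit and the length trend removed. In IR_Pra against IR it was 2 with DESeq2 and 1 at 0.10, against 0, and in IR_Pra against control 1 with DESeq2. Leaving out 1 animal gave 0 to 3, 0 to 2 and 0 to 0 genes in the 3 comparisons. Over all genes, IR against control gave 1103 calls (616 higher), 4131 with DESeq2, 475 (182 higher) with library size alone, 403 on log2 FPKM, 3452 at 0.10, 0 with the 4 libraries alone, and 0 to 5342 without 1 animal. IR_Pra against IR gave 1 call, 2872 with DESeq2, 2 with library size alone, 2 unfiltered, 0 with limma voom, 0 with the 4 libraries alone, 1328 at 0.10, and 0 to 3728 without 1 animal. IR_Pra against control gave 0, 72 with DESeq2 and 0 to 0 without 1 animal. The cause of these shifts was not tested.

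Some single differences changed sign. In the limma trend fit on log2(FPKM + 1), IR_Pra against IR turned to 0.0325 for DUOX2 and 0.0517 for DUOXA2. Leaving out 1 animal, the log2 fold change in IR against control ranged from -0.30 to 3.57 for DUOX2, -0.88 to 1.01 for LYZ, -1.57 to 0.32 for NOS2 and -1.07 to 0.38 for PIGR. In IR_Pra against IR the ranges were -2.79 to 0.93 for DMBT1, -1.28 to 1.34 for DUOX2, -0.82 to 0.83 for DUOXA2, -0.56 to 1.33 for LYZ and -0.50 to 1.68 for NOS2, and in IR_Pra against control -1.002 to 0.93 for NOS2. A fit that leaves 1 animal in a group assumes that it varies like the others.

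Deviations of same-numbered animals correlated at 0.08, -0.11 and -0.09 over genes. Each group gives only the difference between its 2 animals, so these values cannot show whether the numbers share a batch or pairing. With the replicate block no gene passed in any comparison, 0 of the 9 included, and DUOX2 in IR_Pra against IR turned to 0.18. LTF, at 2 counts in each IR_Pra library, is limited by depth. The cause of the 0 counts of PLA2G2A in all 6 libraries was not tested.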

Other observations

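Values outside the comparisons above were chosen after they were seen. Of 11 cathelicidin and protegrin entries, antimicrobial peptides of pig neutrophils, 9 had reads in IR 1, 137 counts in all, and none had reads in the controls or IR 2; the IR_Pra animals had 3 and 12 counts. Several are near-identical copies, among which reads may be split. IL22, the cytokine that induces REG3 lectins in gut epithelium, was at 6.00 CPM in IR 2 and at 0.52 CPM or less in the other 5 animals. REG3G was at 40.5 CPM in IR 2, 81.2 in IR 1, and 671 and 218 in IR_Pra. The part of IL22 in the REG3G values was not tested.

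PLA2G2D, a lymphoid relative of the undetected PLA2G2A, stood at 42.6 and 13.4 CPM in the controls, 3.70 and 1.53 in IR, and 19.9 and 55.6 in IR_Pra. Its log2 fold change in IR against control was -3.42 ± 0.83 (edgeR, adjusted p = 0.0632), and both IR animals are below the other 4. Of 27 beta-defensin entries, 18 had no read in any library.

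GPX2, the glutathione peroxidase of gut epithelium, was at 20.3 and 21.4 CPM in the controls, 60.4 and 30.4 in IR, and 97.3 and 78.1 in IR_Pra. Its groups stand in the same order as those of REG3G without overlap, and it did not pass the test.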
